A study of Paxillus involutus with 25 samples.

Results

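The mycelium of Paxillus involutus grown with flakes of K-vermiculite on K-depleted medium was compared with mycelium grown on complete medium, 5 cultures against 5, to describe what the mineral left different from a full supply of KH2PO4. These 10 cultures were taken by their labels from a series of 25. K-vermiculite cultures grew on MMN agar made without KH2PO4, with flakes of about 2 cm2 laid on a cellophane membrane in the middle of the dish. Complete-medium cultures grew on full MMN agar, which contains KH2PO4, with the same kind of membrane and no mineral. All cultures were of strain ATCC 200175, were started from agar plugs at 3 points and grew for 21 days at 25 °C without light. The other 15 cultures of the series, 5 each with muscovite, with phlogopite and on K-depleted medium alone, entered the fit for its estimate of the spread and are shown beside some of the values. The deposited table holds 18032 gene IDs, of which 12744 passed a filter on low counts and were tested.

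Paxillus involutus is a basidiomycete that forms ectomycorrhiza, the sheathing symbiosis in which a fungus passes mineral nutrients to tree roots in return for sugars. Potassium is the main inorganic cation of fungal cytoplasm, where it balances charge and sets turgor. Vermiculite is a sheet silicate with cations held between its layers, and in K-vermiculite these are potassium ions. Since KH2PO4 holds both potassium and phosphate, a medium without it lacks this source of each. The labels do not say whether another salt supplied phosphate, so whether phosphate was short is not known. Cultures with K-vermiculite therefore differed from complete-medium cultures in the source of potassium, in the phosphate salt and in the presence of a mineral surface, and the design cannot tell these apart. Apart from 2 symbols, neither the count table nor the reference table gives these genes a name or function, so genes are given by their locus tags.

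Totals per library were 26.1 to 41.2 M counts with K-vermiculite and 21.0 to 35.3 M on complete medium, where M stands for 1000000 counts. Levels are given as CPM, counts per 1000000 counts of a library after TMM scaling, and compare cultures for 1 gene, but they are not scaled to gene length and do not rank genes against each other. The TMM factors were 0.982 to 1.03 with K-vermiculite and 1.05 to 1.08 on complete medium. Correlations of log2 CPM were 0.994 to 0.996 among the K-vermiculite libraries, 0.988 to 0.994 among the complete-medium libraries and 0.966 to 0.978 between the groups. The labels call the cultures biological replicates and name no batch. The edgeR p-values weigh a difference between groups against the spread between replicate cultures, estimated over all 25 libraries.

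The transcriptome with K-vermiculite remained clearly apart from that on complete medium, by many small differences and a limited number of wide ones. Differences between the groups made up 67.4% of the variance of log2 CPM in the 10 libraries, summed over tested genes. The exact one-sided permutation p was 0.00794, the smallest that 5 against 5 cultures allow. By the edgeR quasi-likelihood test with Benjamini-Hochberg adjustment, 6753 genes (53% of those tested) were called at an adjusted p below 0.05, of which 3337 were higher (26.2% of the tested genes) and 3416 lower (26.8%) with K-vermiculite. With library totals in place of TMM the split was 2468 higher and 4249 lower, with a median log2 fold change over all genes of -0.08, against 0.00 with TMM (-0.00025). The median absolute log2 fold change was 0.41 over the called genes and 0.25 over all tested genes, and 1969 of the calls (29.2%) reached 1.5-fold. Of the 5797 called genes averaging 5 CPM or more, 4520 (78.0%) showed no overlap between the 5 values of each group, against 46.3% of all 10147 genes at that level. Calls and overlap rest on the same 10 libraries, and the 10147 genes include the called ones. The contrast therefore follows from the selection and carries no test.

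Wide differences leaned to one side: 448 called genes were at least 2-fold lower with K-vermiculite (3.52% of the tested genes) and 211 at least 2-fold higher (1.66%). At 4-fold the counts were 41 higher and 62 lower, at 8-fold 15 higher and 17 lower, and at 16-fold 5 higher and 1 lower. A test against a change of 1.5-fold (glmTreat) called 284 genes as higher and 533 as lower. The lean held with library totals, at 166 higher and 533 lower, and with DESeq2, at 213 higher and 444 lower. The groups did not overlap in 193 of the 211 higher and 411 of the 448 lower genes, against 41.1% of all tested genes. These genes were chosen by the same values, so this contrast too carries no test.

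**Figure D1:**
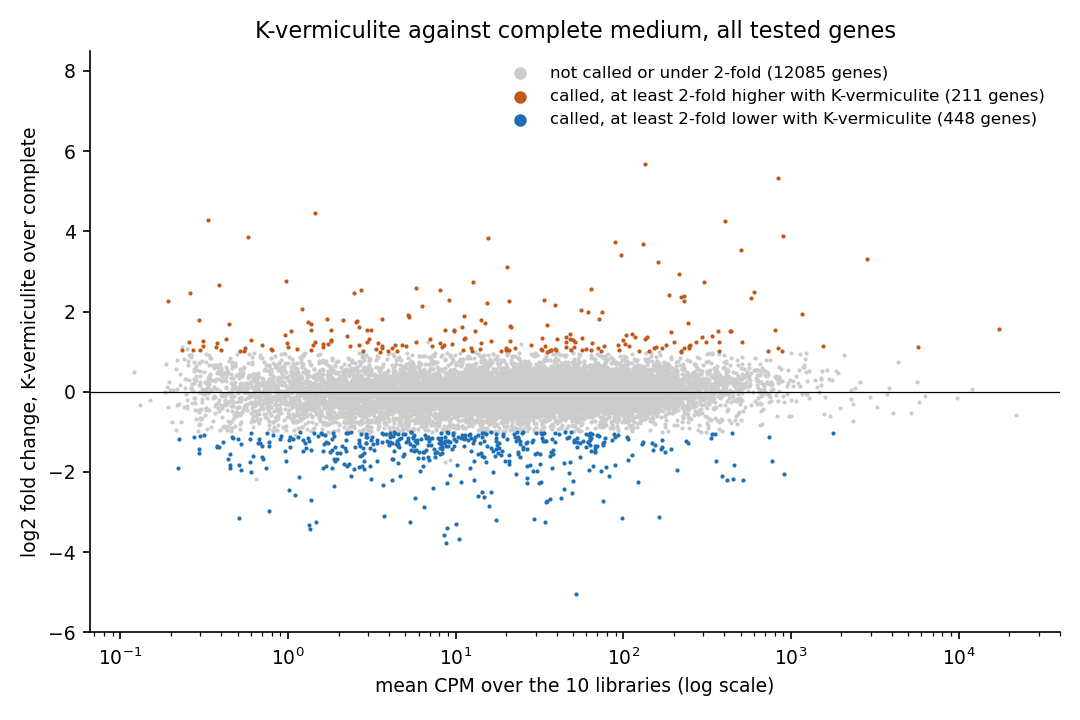
Log2 fold change of K-vermiculite over complete medium (vertical axis) against mean CPM over the 10 libraries (horizontal axis, log scale), 1 point per tested gene. Orange points are the 211 called genes at least 2-fold higher with K-vermiculite, blue points the 448 at least 2-fold lower, and grey points the other tested genes. The blue points lie mostly under 100 CPM, and the points furthest to the right among the coloured ones are orange.

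The direction of the wide differences changed with the level of the gene. Among genes with a mean of 1 to 10 CPM, 60 were at least 2-fold higher and 196 at least 2-fold lower with K-vermiculite. At 10 to 100 CPM there were 67 higher and 176 lower. At 100 to 1000 CPM the order turned, with 52 higher and 32 lower (44 and 41 with library totals), and among the 63 genes at 1000 CPM or more there were 5 higher and 1 lower. The 211 higher genes took 7.28% ± 0.806 of a library's counts with K-vermiculite and 2.5% ± 0.230 on complete medium (SD, n = 5 each). The 448 lower genes took 0.966% ± 0.0953 with K-vermiculite and 2.87% ± 0.146 on complete medium. These shares describe genes chosen by the same counts and carry no test.

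**Figure D2:**
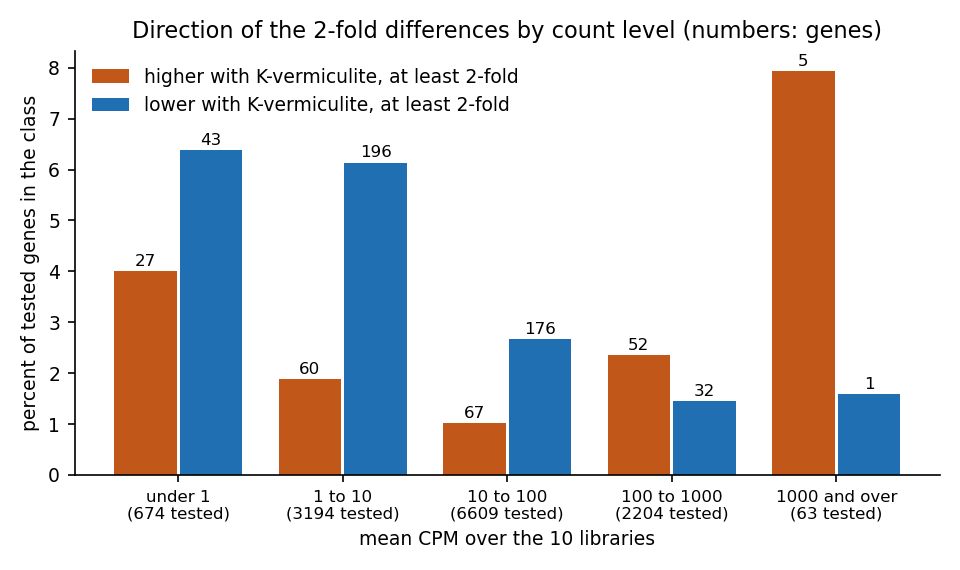
Share of the tested genes in each class of mean CPM (percent, vertical axis) that were called and at least 2-fold higher (orange) or lower (blue) with K-vermiculite than on complete medium. Numbers over the bars count genes. The blue bars are taller in the 3 classes under 100 CPM and the orange bars in the 2 classes above.

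The 8 called genes with the highest log2 fold change were taken among genes that averaged at least 5 CPM and did not overlap between the groups. They were 11.7-fold to 50.8-fold higher with K-vermiculite, and in 6 of the 8 the K-depleted cultures were called as higher still. PAXINDRAFT_97773 had 313, 233, 321, 281 and 176 CPM in the 5 K-vermiculite cultures, against 4.22, 4.34, 4.58, 7.14 and 5.53 CPM in the 5 complete-medium cultures. Every K-vermiculite value lay far above every complete-medium value, a 50.8-fold difference (log2 fold change of 5.67 with SE 0.29 and an edgeR adjusted p of 9.72e-13). Its K-depleted mean was 646 ± 212 CPM (SD, n = 5), and K-vermiculite over K-depleted medium gave a log2 fold change of -1.29 (edgeR adjusted p 0.000101), in a contrast that called 46.2% of the tested genes. PAXINDRAFT_167546, the next gene in the reference order, had 269, 198, 326, 281 and 144 CPM with K-vermiculite and 16.9, 14.3, 26.2, 24.5 and 13.4 CPM on complete medium (log2 fold change of 3.68 with SE 0.23 and an edgeR adjusted p of 1.62e-11). In both genes the mean with K-vermiculite lay between the K-depleted and the complete-medium means.

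PAXINDRAFT_103396 had 2067, 1423, 2272, 1671 and 939 CPM with K-vermiculite, against 91.7, 95.4, 143, 157 and 77.9 CPM on complete medium (log2 fold change of 3.89 with SE 0.22 and an edgeR adjusted p of 1.25e-12). K-vermiculite replicate 5 was the lowest of its group and complete-medium replicate 4 the highest of its own, and the 2 groups remained well separated. On K-depleted medium the mean was 5219 ± 601 CPM, and the log2 fold change of K-vermiculite over K-depleted medium was -1.64 (edgeR adjusted p 6.30e-07). PAXINDRAFT_168505 averaged 929 ± 220.4 CPM with K-vermiculite and 79.7 ± 22.9 CPM on complete medium (SD, n = 5 each; log2 fold change of 3.54 with SE 0.23 and an edgeR adjusted p of 2.78e-11), with a K-depleted mean of 1640.0 CPM. PAXINDRAFT_173207 averaged 29.2 ± 13.8 CPM with K-vermiculite and 2.03 ± 0.540 CPM on complete medium (log2 fold change of 3.83 with SE 0.39 and an edgeR adjusted p of 6.90e-08). Its K-depleted mean was 67.5 CPM, again above that with K-vermiculite.

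The other 3 of the 8 genes highest over complete medium are consecutive in the reference order. PAXINDRAFT_86206 had 1855, 1565, 2121, 1369.5 and 1279 CPM with K-vermiculite and 34.6, 39.9, 33.3, 37.2 and 58.8 CPM on complete medium (log2 fold change of 5.33 with SE 0.29 and an edgeR adjusted p of 1.94e-12). PAXINDRAFT_172163 had 188, 147, 194, 152 and 143 CPM with K-vermiculite and 10.5, 11.5, 14.4, 12.8 and 13.4 CPM on complete medium (log2 fold change of 3.72 with SE 0.12 and an edgeR adjusted p of 1.08e-17). PAXINDRAFT_172169 had 849.6, 672, 993, 732 and 605 CPM with K-vermiculite and 32.6, 39.7, 32.2, 34.6 and 62.4 CPM on complete medium (log2 fold change of 4.26 with SE 0.25 and an edgeR adjusted p of 7.16e-12). In all 3 the groups stood apart by at least 9.69-fold between their nearest values, and complete-medium replicate 5 was the highest of its group for PAXINDRAFT_86206 and PAXINDRAFT_172169. K-vermiculite over K-depleted medium gave a log2 fold change of 0.23 (edgeR adjusted p 0.441) for PAXINDRAFT_86206, -0.28 (edgeR adjusted p 0.0389) for PAXINDRAFT_172163 and 0.25 (edgeR adjusted p 0.352) for PAXINDRAFT_172169. Of these, PAXINDRAFT_172163 was called as slightly lower with the mineral.

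**Figure D3:**
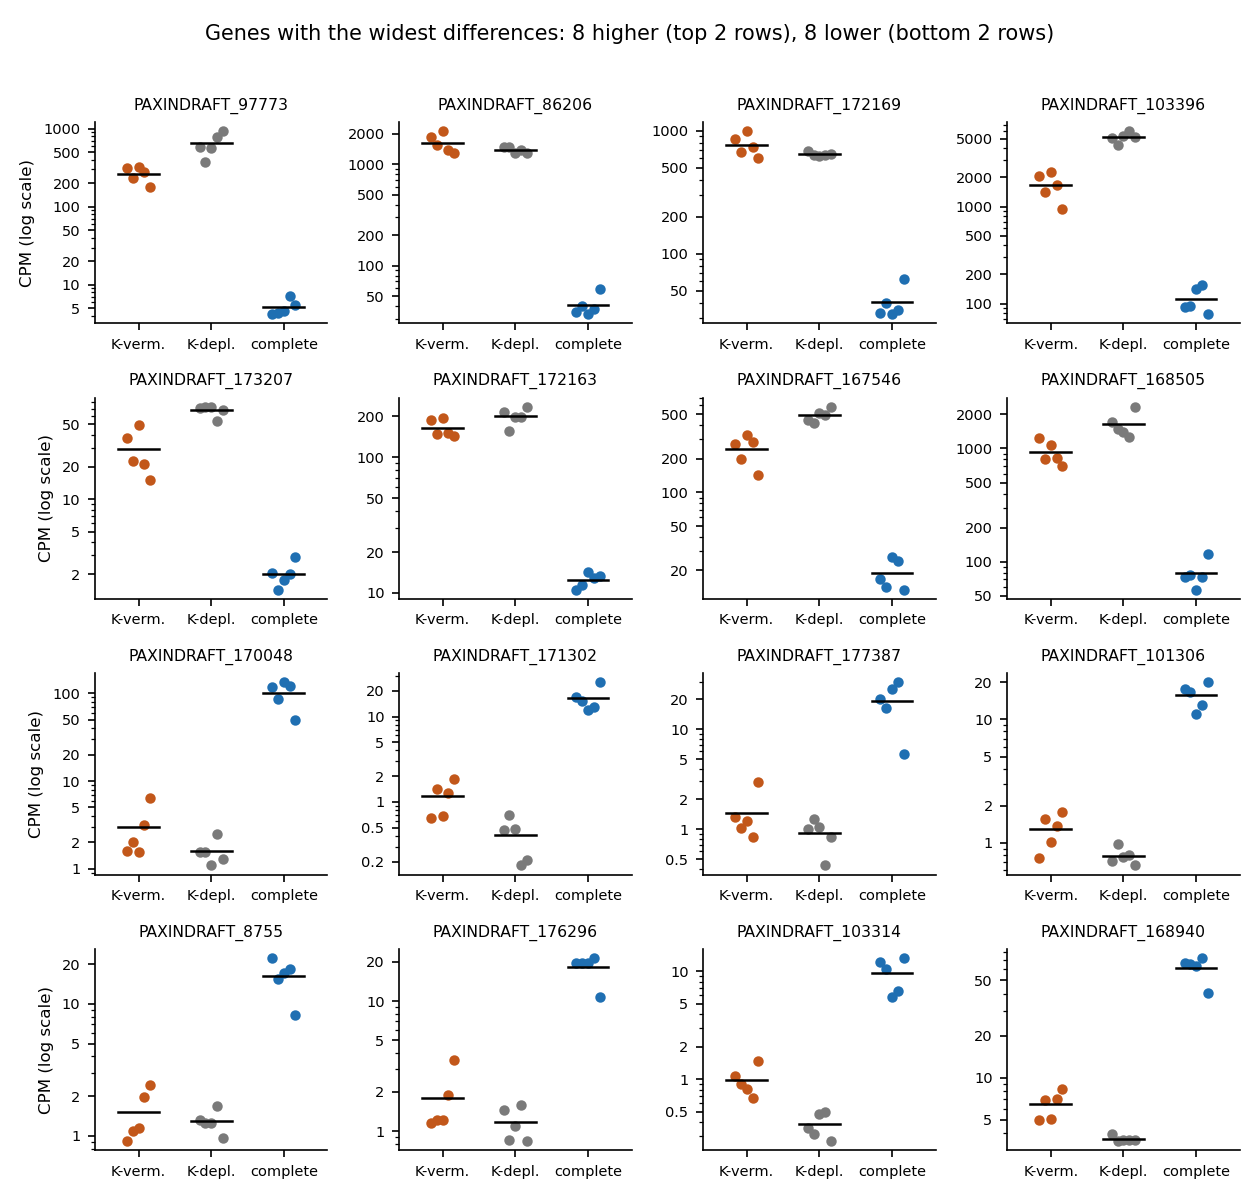
CPM (log scale, vertical axes, 1 panel per gene) in each of the 5 K-vermiculite, 5 K-depleted and 5 complete-medium cultures, for the 8 genes with the highest (top 2 rows) and the 8 with the lowest (bottom 2 rows) log2 fold change of K-vermiculite over complete medium. Points are cultures in order of replicate number and bars are means. The genes were chosen among those without overlap between K-vermiculite and complete medium, so these groups lie apart in every panel by that rule.

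At the other end, the 8 called genes with the lowest log2 fold change, taken in the same way, averaged 0.993 to 6.47 CPM with K-vermiculite and 9.70 to 101 CPM on complete medium. PAXINDRAFT_170048 had 1.6, 2.00, 1.57, 3.19 and 6.46 CPM with K-vermiculite, against 116, 86.6, 132, 122 and 49.1 CPM on complete medium, a 32.9-fold lower level (log2 fold change of -5.04 with SE 0.34 and an edgeR adjusted p of 1.16e-10). K-vermiculite replicate 5 was the highest of its group and complete-medium replicate 5 the lowest of its own, so these libraries lay nearest to the other group. The K-depleted mean was 1.6 ± 0.534 CPM (SD, n = 5), and the log2 fold change of K-vermiculite over it was 0.95 (edgeR adjusted p 0.0547). PAXINDRAFT_171302 had 0.653, 1.40, 0.687, 1.28 and 1.84 CPM with K-vermiculite and 16.9, 15.1, 12, 13.0 and 25.1 CPM on complete medium (log2 fold change of -3.78 with SE 0.25 and an edgeR adjusted p of 1.39e-11). Its neighbour PAXINDRAFT_101306 had 0.751, 1.55, 1.01, 1.37 and 1.77 CPM with K-vermiculite and 17.5, 16.8, 11.1, 13.1 and 19.9 CPM on complete medium (log2 fold change of -3.58 with SE 0.17 and an edgeR adjusted p of 3.99e-15). Both were called as higher with K-vermiculite than on K-depleted medium, with a log2 fold change of 1.58 (edgeR adjusted p 0.00101) for PAXINDRAFT_171302 and 0.75 (edgeR adjusted p 0.00503) for its neighbour.

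The remaining 5 of the 8 lowest genes had levels of a few CPM or less with K-vermiculite, apart from PAXINDRAFT_168940. PAXINDRAFT_177387 averaged 1.46 ± 0.843 CPM with K-vermiculite and 19.3 ± 9.12 CPM on complete medium (SD, n = 5 each; log2 fold change of -3.67 with SE 0.36 and an edgeR adjusted p of 2.28e-08). Its highest value with K-vermiculite, 2.93 CPM in replicate 5, still lay under the lowest complete-medium value, 5.67 CPM, also in replicate 5. PAXINDRAFT_8755 averaged 1.51 ± 0.659 CPM with K-vermiculite and 16.3 ± 5.17 CPM on complete medium (log2 fold change of -3.39 with SE 0.24 and an edgeR adjusted p of 2.40e-11). PAXINDRAFT_176296 averaged 1.79 ± 1.00 CPM with K-vermiculite and 18.2 ± 4.27 CPM on complete medium (log2 fold change of -3.30 with SE 0.27 and an edgeR adjusted p of 7.50e-10). PAXINDRAFT_103314 averaged 0.993 ± 0.315 CPM with K-vermiculite and 9.70 ± 3.38 CPM on complete medium (log2 fold change of -3.26 with SE 0.24 and an edgeR adjusted p of 2.53e-11). PAXINDRAFT_168940 averaged 6.47 ± 1.44 CPM with K-vermiculite and 61.6 ± 12.1 CPM on complete medium (log2 fold change of -3.24 with SE 0.24 and an edgeR adjusted p of 1.96e-10). Against K-depleted medium, PAXINDRAFT_103314 and PAXINDRAFT_168940 were called as higher with K-vermiculite, with log2 fold changes of 1.40 (edgeR adjusted p 0.00150) and 0.84 (edgeR adjusted p 0.00853). The same contrast gave 0.73 (edgeR adjusted p 0.186) for PAXINDRAFT_177387, 0.27 (edgeR adjusted p 0.441) for PAXINDRAFT_8755 and 0.67 (edgeR adjusted p 0.0938) for PAXINDRAFT_176296, which did not pass the threshold.

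Of the called genes at least 2-fold different, the 5 with most counts in each direction are described next. Among the higher ones, 2 exceeded even their level on K-depleted medium. PAXINDRAFT_68958 had 25377, 26150.1, 30466, 25594 and 22129 CPM with K-vermiculite and 8829, 9235, 7074, 7622 and 11315 CPM on complete medium (log2 fold change of 1.56 with SE 0.14 and an edgeR adjusted p of 8.05e-10). The K-depleted mean was 18197 ± 1332 CPM, so its level with K-vermiculite lay above both media, with a log2 fold change over K-depleted medium of 0.51 (edgeR adjusted p 0.00368). PAXINDRAFT_152508 also lay above both media, at 6956, 7278, 8595, 8439.5 and 7945 CPM with K-vermiculite and 3219.8, 3981, 3883, 3716 and 3312 CPM on complete medium (log2 fold change of 1.11 with SE 0.12 and an edgeR adjusted p of 1.13e-08). Its log2 fold change over K-depleted medium was 0.86 (edgeR adjusted p 1.35e-06). The K-depleted mean was 4322 ± 679 CPM, and K-depleted over complete medium was not called (log2 fold change 0.25, edgeR adjusted p 0.0552). K-vermiculite and complete-medium values did not overlap for either gene. The 5 K-vermiculite values of PAXINDRAFT_152508 exceeded all 5 K-depleted values, the highest of which was 5053 CPM. For PAXINDRAFT_68958, muscovite cultures averaged 26892 ± 5395 CPM, with a log2 fold change over K-depleted medium of 0.56 (edgeR adjusted p 0.0215). Phlogopite cultures averaged 17194 ± 2172 CPM, with a log2 fold change over K-depleted medium of -0.08 (edgeR adjusted p 0.757).

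PAXINDRAFT_169161 had 5647, 4751, 8166, 4223 and 2976 CPM with K-vermiculite and 450.1, 505, 472, 525 and 642 CPM on complete medium (log2 fold change of 3.31 with SE 0.21 and an edgeR adjusted p of 1.94e-12). The lowest K-vermiculite culture was replicate 5 and the highest complete-medium culture was also replicate 5. With a K-depleted mean of 9663 ± 1534 CPM, its log2 fold change over K-depleted medium was -0.91 (edgeR adjusted p 0.000357). PAXINDRAFT_169342 averaged 1849.9 ± 444 CPM with K-vermiculite and 481 ± 67.8 CPM on complete medium (log2 fold change of 1.94 with SE 0.17 and an edgeR adjusted p of 6.31e-10), and its K-depleted mean was 2243 CPM. PAXINDRAFT_11343 averaged 2142 ± 179.9 CPM with K-vermiculite and 971 ± 194 CPM on complete medium (log2 fold change of 1.14 with SE 0.14 and an edgeR adjusted p of 2.20e-07). Its K-depleted mean was 4565 CPM, so the level with the mineral lay between those of the media, with a log2 fold change of -1.09 (edgeR adjusted p 7.89e-07) over K-depleted medium.

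Among the lower genes with most counts, PAXINDRAFT_162475 had 915, 999, 992, 1376 and 1596 CPM with K-vermiculite and 2111, 2223, 2579.8, 2562 and 2471 CPM on complete medium (log2 fold change of -1.02 with SE 0.12 and an edgeR adjusted p of 1.32e-07). It averaged 592 CPM with muscovite, 809 CPM with phlogopite and 1389 CPM on K-depleted medium, and the log2 fold change of K-vermiculite over K-depleted medium was -0.24 (edgeR adjusted p 0.113). Muscovite over K-depleted medium gave -1.23 (edgeR adjusted p 1.40e-06) and phlogopite over K-depleted medium -0.78 (edgeR adjusted p 0.00217). PAXINDRAFT_164864 had 328, 350.1, 287, 306 and 493 CPM with K-vermiculite and 1398, 1281, 1813, 1859.6 and 987 CPM on complete medium (log2 fold change of -2.06 with SE 0.17 and an edgeR adjusted p of 1.03e-09). Its K-depleted mean of 345 ± 52.7 CPM lay beside that with K-vermiculite, 353 ± 81.7 CPM, with a log2 fold change between them of 0.03 (edgeR adjusted p 0.889). PAXINDRAFT_100353 averaged 356 ± 52.9 CPM with K-vermiculite and 1186 ± 249 CPM on complete medium (log2 fold change of -1.74 with SE 0.15 and an edgeR adjusted p of 8.44e-10). PAXINDRAFT_171167 averaged 466 ± 63.9 CPM with K-vermiculite and 1022 ± 55.4 CPM on complete medium (log2 fold change of -1.13 with SE 0.12 and an edgeR adjusted p of 8.82e-09). PAXINDRAFT_165856 averaged 186 ± 29.6 CPM with K-vermiculite and 853 ± 89.5 CPM on complete medium (log2 fold change of -2.20 with SE 0.19 and an edgeR adjusted p of 2.94e-09). PAXINDRAFT_100353, PAXINDRAFT_171167 and PAXINDRAFT_165856 were all called as higher with K-vermiculite than on K-depleted medium, with log2 fold changes of 0.42 (edgeR adjusted p 0.0207), 0.37 (edgeR adjusted p 0.0118) and 1.22 (edgeR adjusted p 1.65e-05).

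**Figure D4:**
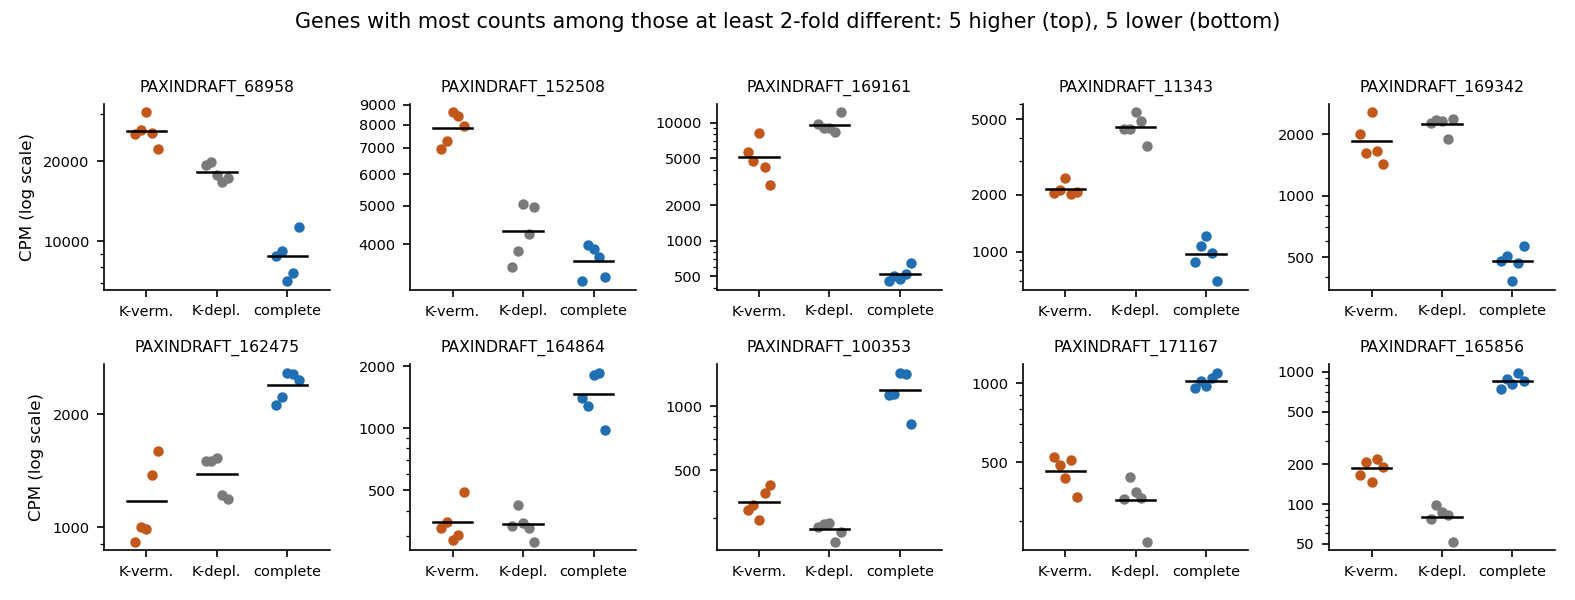
CPM (log scale, vertical axes, 1 panel per gene) in each K-vermiculite, K-depleted and complete-medium culture for the genes with most counts among those called and at least 2-fold different, 5 higher (top row) and 5 lower (bottom row) with K-vermiculite than on complete medium. Points are the 5 cultures of a group and bars are means. K-vermiculite cultures stand above both media for PAXINDRAFT_68958 and PAXINDRAFT_152508 and between the media for PAXINDRAFT_169161 and PAXINDRAFT_11343.

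Some of the genes at least 2-fold different lay side by side. The reference table gives gene order within scaffolds but no scaffold names, so a new scaffold was taken to begin where the start position falls. Of the 10800 pairs of adjacent tested genes, 79 (0.731%) had both genes called and at least 2-fold different in the same direction, 27 pairs higher and 52 lower. Of the 211 higher genes, 48 (22.7%) had such a higher neighbour on at least 1 side, as had 2.53% of all tested genes. Of the 448 lower genes, 97 (21.7%) had such a lower neighbour, as had 5.45% of all tested genes. Runs of 3 or more such genes numbered 5 in the higher direction, 1 of them of 4 genes, and 6 in the lower direction, again 1 of them of 4 genes. How reads shared by adjacent genes were counted is not stated, and the part of shared reads in these runs was not tested.

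The run with the widest differences is the 3 genes from PAXINDRAFT_86206 to PAXINDRAFT_172169 described above. The next gene, PAXINDRAFT_16635, was higher by a log2 fold change of 0.78 (edgeR adjusted p 1.23e-05), and the one after it, PAXINDRAFT_61777, was lower, with a mean of 4.89 CPM with K-vermiculite and 11.1 CPM on complete medium (log2 fold change -1.18, edgeR adjusted p 1.90e-08). PAXINDRAFT_169161 ends a run of 3 with PAXINDRAFT_169154, which averaged 119 CPM with K-vermiculite and 29.8 CPM on complete medium (log2 fold change 2.00, edgeR adjusted p 6.61e-07), and PAXINDRAFT_169155, which averaged 98.7 CPM with K-vermiculite and 24.8 CPM on complete medium (log2 fold change 1.99, edgeR adjusted p 3.11e-06). PAXINDRAFT_115018, separated from that run by 1 gene that was not tested, was higher as well (log2 fold change 1.52, edgeR adjusted p 2.99e-07). In the lower direction, PAXINDRAFT_171302 and PAXINDRAFT_101306 are followed by PAXINDRAFT_181632, a gene of 0.297 CPM with K-vermiculite and 0.626 CPM on complete medium (log2 fold change -1.12, edgeR adjusted p 0.00856), whose values overlapped between the groups.

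**Figure D5:**
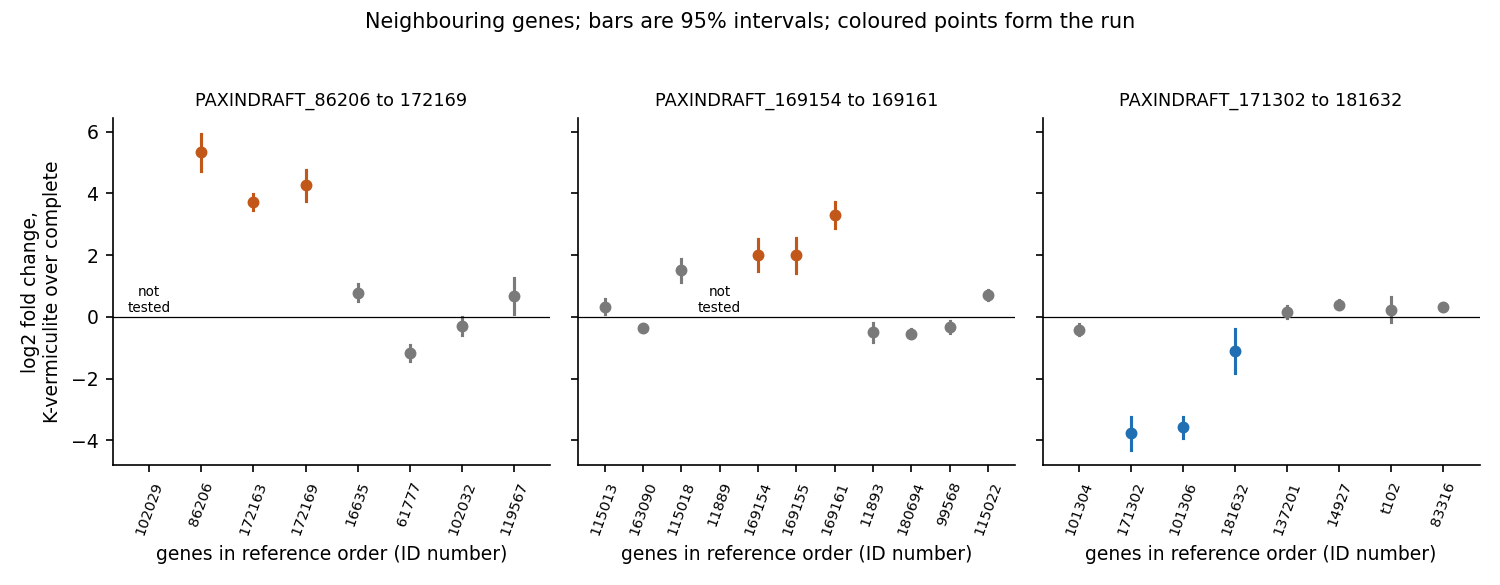
Log2 fold change of K-vermiculite over complete medium (vertical axis) for 3 runs of neighbouring genes and the genes flanking them, in the order of the reference table (horizontal axis, number part of the locus tag). Points are estimates and bars 95% intervals, orange for runs higher and blue for runs lower with K-vermiculite, grey for flanking genes. The 3 genes from PAXINDRAFT_86206 lie between 3.72 and 5.33, and the difference drops to 0.78 at the next gene.

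The runs of 4 genes held narrower differences. In the higher direction PAXINDRAFT_169342 was followed by PAXINDRAFT_12162, with 13.1 to 18.4 CPM over the 5 K-vermiculite cultures and 4.35 to 8.05 CPM over the 5 complete-medium cultures (log2 fold change of 1.33 with SE 0.12 and an edgeR adjusted p of 8.73e-10). Next came PAXINDRAFT_155804, at 41.3 to 60.4 CPM with K-vermiculite and 21.3 to 28.9 CPM in complete-medium cultures (log2 fold change of 1.05 with SE 0.15 and an edgeR adjusted p of 4.00e-06), and PAXINDRAFT_53756, with 1.76 to 3.67 CPM with K-vermiculite and 0.589 to 0.940 CPM in complete-medium cultures (log2 fold change of 1.81 with SE 0.23 and an edgeR adjusted p of 2.50e-07). No pair of ranges overlapped. In the lower direction PAXINDRAFT_167100, PAXINDRAFT_8743, PAXINDRAFT_97287 and PAXINDRAFT_8745 had log2 fold changes of -1.67, -1.74, -1.29 and -1.12, with edgeR adjusted p of 1.20e-06, 8.04e-05, 1.83e-08 and 0.000415. These are genes of few counts, with means of 0.341, 0.269, 2.41 and 0.658 CPM with K-vermiculite and 1.07, 0.922, 5.89 and 1.39 CPM on complete medium.

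Among the runs of 3, PAXINDRAFT_100134, PAXINDRAFT_116096 and PAXINDRAFT_169793 were higher with K-vermiculite, by log2 fold changes of 1.37, 1.21 and 1.02 (edgeR adjusted p 2.38e-12, 2.07e-10 and 2.97e-12). PAXINDRAFT_169793 had 279.8, 279, 294, 310.0 and 307 CPM with K-vermiculite and 136, 141, 161, 159 and 128 CPM on complete medium, a narrow spread in either group. K-vermiculite over K-depleted medium gave log2 fold changes of -0.39 (edgeR adjusted p 0.000768) for PAXINDRAFT_100134 and -0.36 (edgeR adjusted p 0.00345) for PAXINDRAFT_116096. For PAXINDRAFT_169793 it gave 0.28 (edgeR adjusted p 0.00116). PAXINDRAFT_132324, PAXINDRAFT_52830 and PAXINDRAFT_168530 were lower than on complete medium, with log2 fold changes of -1.29, -1.84 and -1.47 (edgeR adjusted p 1.24e-10, 6.84e-10 and 2.56e-08). All 3 were also lower with K-vermiculite than on K-depleted medium, with log2 fold changes of -0.61 (edgeR adjusted p 4.35e-05), -1.05 (edgeR adjusted p 2.04e-05) and -0.57 (edgeR adjusted p 0.00724). PAXINDRAFT_132324, for example, averaged 14.0 ± 2.08 CPM with K-vermiculite, 21.3 ± 1.32 CPM in K-depleted cultures and 34.3 ± 3.79 CPM on complete medium.

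The 2 genes with symbols are nps2 and pks3, names in use for a nonribosomal peptide synthetase and a polyketide synthase, enzyme families that build secondary metabolites. The gene nps2 had 80.0, 89.1, 88.4, 98.7 and 98.3 CPM with K-vermiculite and 60.4, 61.8, 62.0, 61.9 and 62.6 CPM on complete medium, where the cultures were closely alike. All K-vermiculite values were higher (log2 fold change of 0.56 with SE 0.07 and an edgeR adjusted p of 4.02e-07). The K-depleted mean of nps2 was 113 ± 10.7 CPM, and K-vermiculite over K-depleted medium gave a log2 fold change of -0.32 (edgeR adjusted p 0.000876). The gene pks3 had 48.4, 48.7, 42.2, 45.9 and 54.1 CPM with K-vermiculite and 20.2, 17.9, 76.1, 55.6 and 13.3 CPM on complete medium. The complete-medium values surrounded the K-vermiculite ones, and the log2 fold change of 0.39 had a 95% interval of -0.58 to 1.35 (edgeR adjusted p 0.503), too wide to give a direction. With 1 culture left out the log2 fold change of pks3 was 0.17 to 0.83, lowest without complete-medium replicate 5 and highest without complete-medium replicate 3, and limma-voom gave 0.72.

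Many genes had levels with K-vermiculite close to those on complete medium. Of the 5991 genes that were not called, 1967 had a 95% interval of the log2 fold change within 0.25 of 0, as had 54 called genes, in all 15.9% of the tested genes. PAXINDRAFT_166353 had 2249, 2274, 2414, 2362 and 2221 CPM with K-vermiculite and 2392, 2421, 1894, 2178 and 2305 CPM on complete medium, with a log2 fold change of 0.04 (95% interval -0.12 to 0.20). For PAXINDRAFT_162337 the interval was -0.15 to 0.14, with means of 1459 ± 105 CPM with K-vermiculite and 1465 ± 52.5 CPM on complete medium, while K-depleted cultures averaged 1121 ± 40.1 CPM with a log2 fold change of K-vermiculite over them of 0.38 (edgeR adjusted p 8.68e-05). PAXINDRAFT_162452 and PAXINDRAFT_82237 had intervals of -0.20 to 0.10 and -0.19 to 0.10. K-depleted over complete medium was not called for PAXINDRAFT_166353 (log2 fold change -0.10, edgeR adjusted p 0.251) or PAXINDRAFT_162452 (-0.11, edgeR adjusted p 0.197). It was called for PAXINDRAFT_162337 (-0.39, edgeR adjusted p 2.65e-05) and PAXINDRAFT_82237 (-0.27, edgeR adjusted p 0.00147). PAXINDRAFT_169257, one of the genes with most counts, lay just outside the bound of 0.25. It had 11804, 12284, 14314, 11279 and 11841 CPM with K-vermiculite and 11980.5, 12822, 10709.5, 11506 and 11897 CPM on complete medium (log2 fold change 0.06, 95% interval -0.13 to 0.254).

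Other genes with large shares of the counts differed widely between replicates. PAXINDRAFT_177523 had 32109.8, 22451, 11924, 10254 and 11302 CPM with K-vermiculite and 38657, 25652, 30310.0, 21979.6 and 14161 CPM on complete medium. The groups overlapped over most of their range, and the log2 fold change was -0.57 (95% interval -1.33 to 0.19, edgeR adjusted p 0.197). Without K-vermiculite replicate 1, the highest of its group, it was -0.90 and the gene was called (edgeR adjusted p 0.0420). PAXINDRAFT_87133 lies next to it in the reference order, and PAXINDRAFT_87122 2 genes further on. Their log2 fold changes were -0.11 (95% interval -0.90 to 0.68) and -0.16 (95% interval -0.94 to 0.61), and PAXINDRAFT_87122 had 15472, 9112, 7473, 6352 and 7691 CPM with K-vermiculite and 11369.9, 8099, 15590.0, 12832 and 3764 CPM on complete medium. All 12 genes of what was taken as that scaffold were tested, and 1 was called, against 53% of all tested genes. It was PAXINDRAFT_157837, at 5.03 ± 2.08 CPM with K-vermiculite and 2.27 ± 0.701 CPM on complete medium (SD, n = 5 each; log2 fold change 1.14, edgeR adjusted p 0.00200). The genes not called had SEs of 0.36 to 0.74, too wide to read as no difference. The median SE was 0.29 over tested genes under 1 CPM and 0.10 over those at 1000 CPM or more. Together the 12 genes took 8.19%, 5.57%, 3.45%, 3.06% and 3.54% of the counts in the K-vermiculite libraries and 8.81%, 6.12%, 8.61%, 6.65% and 3.29% in the complete-medium libraries.

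Single cultures were not equally far from the other group. Over the 211 genes at least 2-fold higher, K-vermiculite replicate 5 was the lowest of its group, and so nearest to complete medium, in 93 genes (44.1%), and replicate 3 in 8 (3.79%). Over the 448 lower genes, K-vermiculite replicate 5 was nearest to complete medium in 172 (38.4%) and replicate 3 in 35 (7.81%). On the complete-medium side, replicate 5 was nearest to K-vermiculite in 226 of the 448 lower genes (50.4%) and in 76 of the 211 higher genes (36.0%). These positions were counted only in genes chosen by the same libraries, not over all tested genes, and carry no test. K-vermiculite replicate 5 was also the deepest library of these 10, at 41.2 M counts, and the part of depth in its position was not tested. Leaving out K-vermiculite replicate 5 gave 686 genes at least 2-fold different, and leaving out complete-medium replicate 5 gave 694, against 659 with all cultures.

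The mean squared distance of a library to its group mean over the tested genes, on the log2 CPM scale, was 0.0262 ± 0.00301 with K-vermiculite and 0.0377 ± 0.0113 on complete medium (SD, n = 5 each). The K-vermiculite libraries had 0.0269, 0.0215, 0.0263, 0.0263 and 0.0299, and the complete-medium libraries 0.0343, 0.0272, 0.0496, 0.0277 and 0.0497. The smaller spread with K-vermiculite had an exact two-sided permutation p of 0.0476. With 1 culture left out the exact p was 0.05 or more in 7 of 10 cases, and it was highest, 0.190, without complete-medium replicate 3 or 5, the 2 libraries farthest from their group mean. The difference of K-vermiculite minus complete medium was then -0.00537 without replicate 3 and -0.00524 without replicate 5, against -0.0115 with all cultures. Each group mean includes the library itself, so distances tend to be shorter in a group that lacks 1 culture. The values and p with 1 culture left out are therefore not strictly comparable with those of all cultures.

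Muscovite and phlogopite, compared with K-depleted medium, give a readout of the same genes in libraries that entered neither side of the comparison above. These libraries did enter the shared estimate of the spread, so the readout is not fully independent of the calls. Of the 211 genes at least 2-fold higher with K-vermiculite than on complete medium, 26 were called with muscovite over K-depleted medium, 12.3% against 3.36% of all tested genes. Of these 26, 22 were higher with muscovite and 4 lower, while over all tested genes 1.5% were called as higher and 1.86% as lower. Over all 211 genes the median with muscovite was a log2 fold change of 0.08, against 0.00 over all tested genes (-0.0032). Of the 448 lower genes, 14 were called with muscovite, 8 higher and 6 lower (3.13%), with a median log2 fold change of 0.05. With phlogopite over K-depleted medium, 14 of the 211 higher genes were called, 12 higher and 2 lower (6.64%), and 15 of the 448 lower genes, 5 higher and 10 lower (3.35%), against 5.15% of all tested genes, 2.77% higher and 2.38% lower. The medians with phlogopite were 0.06 for the higher and -0.03 for the lower genes, against -0.01 over all tested genes (-0.0077). By DESeq2, muscovite gave 31 calls among the higher genes (14.7%) and 29 among the lower genes (6.47%), against 5.05% of all tested genes. Phlogopite gave 20 calls among the higher genes (9.48%) and 25 among the lower genes (5.58%), against 8.84% of all tested genes. By edgeR, the 3337 genes called as higher at any fold held 176 calls with muscovite (5.27%), 91 higher and 85 lower. The 3416 genes called as lower at any fold held 114 (3.34%), 47 higher and 67 lower. With phlogopite the 3337 genes held 192 calls (5.75%), 139 higher and 53 lower. The 3416 genes held 171 (5.01%), 62 higher and 109 lower.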

How the data were processed

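Poly(A) RNA of 25 Paxillus involutus cultures was sequenced from TruSeq Stranded mRNA libraries, per the labels' protocols. The authors deposited raw counts of reads per gene, 1 column for each culture. The submitters' processing notes name bcl2fastq 2.19, STAR 2.5.2b and HTSeq, while genome build, annotation, strand setting and the handling of reads with several matches were not given in the sources used here. Counts of near-identical gene copies are therefore uncertain.

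All 25 libraries, 21.0 to 41.2 M counts in the 10 compared here, entered 1 edgeR 4.0.16 fit in R 4.3.3 (TMM scaling, filterByExpr with a minimum count of 10 and total of 15, robust quasi-likelihood test, Benjamini-Hochberg adjustment over 12744 genes, called below 0.05). The SE is the absolute log2 fold change over the square root of F. Whole-library measures used log2 CPM with a prior count of 2. The fit was tested on simulated counts. Alternatives used DESeq2 1.42.0, limma 3.58.1 (voom) and sva 3.50.0. Genes were named by rule: the 8 highest and lowest log2 fold changes (at least 5 CPM, no overlap), the 5 with most counts per direction among those at least 2-fold different, the run of 4 neighbours per direction and 1 of the tied runs of 3 (the first by locus tag sorted as text), the 2 genes with symbols, and the genes with most counts among those matched and in each group. PAXINDRAFT_16635, PAXINDRAFT_61777, PAXINDRAFT_115018, PAXINDRAFT_157837, PAXINDRAFT_169154, PAXINDRAFT_169155 and PAXINDRAFT_181632 were added after their values were seen. The comparison, lists and rules were chosen with earlier results of these data known. All 18032 IDs matched the RefSeq gene table of the strain, used only for symbols and gene order. Gene lists by function and promoter motifs were planned and not run, since no product names or sequences were used here.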

Additional observations from a re-analysis of the deposited data

Results flagged for a closer look

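In 6 of the 102 sets of 5 values examined, the highest or lowest culture lay so far from the other 4 that its gap passed Dixon's 95% limit of 0.71 of the group's range. Chance flags about 1 in 20 such sets. Complete-medium replicate 5 accounted for 4 of them. It had the highest complete-medium value for PAXINDRAFT_86206, at 58.8 CPM, and for PAXINDRAFT_172169, at 62.4 CPM, neighbours in the reference order. It had the lowest complete-medium value for PAXINDRAFT_176296, at 10.7 CPM, and for PAXINDRAFT_168940, at 40.7 CPM. All 4 values lay on the side of the K-vermiculite cultures. K-vermiculite replicate 5 had the highest K-vermiculite value for PAXINDRAFT_177387, at 2.93 CPM, on the side of complete medium. K-vermiculite replicate 3 had the highest K-vermiculite value for PAXINDRAFT_11343, at 2455 CPM, on the side away from complete medium. All 6 genes were still called without these cultures.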

How the results depend on the processing

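The number of called genes was 5809 to 7180 under the other scalings, filters, tools and fits, against 6753, and 6177 to 6567 with 1 culture left out. A test against a 1.5-fold change called 817. Genes at least 2-fold different numbered 646 to 699, with 1 culture left out 624 to 694, and 403 where a mean of at least 5 CPM was required, which tests fewer genes. With library totals 36.7% of the calls were higher with K-vermiculite, in place of 49.4%, and 76.3% of those at least 2-fold different were lower, in place of 68.0%. All 40 called genes named by rule kept their direction and call in each of the 19 alternatives that tested them. Leaving out 1 culture gave a share of variance between the groups of 65.9% to 70.2% and 1741 to 1873 matched genes. The smaller spread of K-vermiculite libraries (difference -0.0115) passed the threshold in 3 of 13 alternatives. It was -0.0126 with a prior count of 0.5 and -0.0113 with library totals (exact permutation p 0.0556 in both), -0.00849 with at least 5 CPM (exact permutation p 0.103), and -0.0141 to -0.00524 with 1 culture left out. Leaving out a culture tends in itself to shorten the distances of its group. Of the 10800 adjacent tested pairs, 1958 were called in the same direction at any fold, against 79 (0.731%) at 2-fold. At any fold 26.2% of the tested genes were called as higher and 26.8% as lower, so that count says little about neighbours. Among genes not called, signs turned within the error. PAXINDRAFT_162337 gave 0.0051 with RLE scaling and with DESeq2, and -0.037 to 0.022 with 1 culture left out. PAXINDRAFT_166353 gave -0.038 and PAXINDRAFT_169257 -0.018 with library totals, and pks3 -0.11 with 1 surrogate variable. With 1 culture left out PAXINDRAFT_166353 gave -0.013 to 0.072, PAXINDRAFT_87122 -0.43 to 0.032 and PAXINDRAFT_87133 -0.36 to 0.083. The cause was not tested. Calls with phlogopite among the 448 lower genes numbered 7 (1.56%, against 4.39% of all tested genes) with limma-voom and 30 (6.70%, against 11% of all tested genes) with 1 surrogate variable, in place of 15.

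Between K-vermiculite and complete medium, the replicate numbers are not shown to pair cultures. Deviations of same-numbered cultures correlated at -0.195 to 0.0654, and 1 of 5 K-vermiculite cultures correlated best with its own number. The other groups were not checked in this way. For pks3, replicate 4 was lowest with muscovite, with phlogopite and on K-depleted medium (12.5, 14.8 and 15.1 CPM), but in neither group compared here. PAXINDRAFT_177523 was highest in replicate 1 in every group except phlogopite. Whether equal numbers share a batch is not stated in the labels. With the replicate block 6818 genes were called, 650 of them at least 2-fold different, and PAXINDRAFT_177523 passed the threshold (log2 fold change -0.64, edgeR adjusted p 0.0349).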

Other observations

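No gene was detected in all 5 cultures of one group and absent from all 5 of the other. Counts in only 1 of the groups were found for 192 IDs with K-vermiculite and 217 IDs on complete medium, and the highest summed count among them was 9 in either case.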
